A study of Mus musculus with 2 samples.

Results

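The 8 genes described here are transcripts linked to the identity of regulatory T cells (Tregs): Foxp3, Ikzf2, Ikzf4, Il2ra, Penk, Itgb8, Ccr8 and Lrrc32. They were chosen by name, as the mouse features with these symbols, 8 of 33696 mouse features of the count matrix. All 8 were present and all 8 had UMIs in annotated cells. Leukocytes were sorted for CD45 from MC38 tumours, a mouse colon carcinoma line implanted subcutaneously in animals with human Fcγ receptors. The dose was 100 µg of a human IgG1 directed at mouse GITR, or PBS, in 2 injections 3 days apart, and cells were taken 4 days after treatment. The deposited annotation names 4 treatments: GA-aFuc, an agonist with an enhanced Fc part; GITR/Syn GA-aFuc, a non-agonist with an enhanced Fc part; N297A, an agonist with a null Fc part; and Untreated, the PBS animals. The library analysed here pooled 6 hashtagged mice: GA-aFuc replicates 2 and 3, GITR/Syn GA-aFuc replicates 2 and 3, N297A replicate 3 and Untreated replicate 3. "Fc-enhanced mice" below means the 4 GA-aFuc and GITR/Syn GA-aFuc animals, set against the 1 N297A and the 1 Untreated animal.

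Tregs restrain immune responses and gather in many tumours. Foxp3 is the transcription factor that fixes their programme, and mutations that disable it cause fatal autoimmunity in mice. Tumour Tregs also carry much GITR, encoded by Tnfrsf18, which makes them a target of antibodies whose Fc part engages killing cells. Of the other genes, Ikzf2 (Helios) and Ikzf4 (Eos) encode Ikaros family zinc finger factors that act with Foxp3, and Il2ra encodes CD25, the chain that gives the interleukin-2 receptor its high affinity. Itgb8 encodes the integrin chain that with αv releases active TGF-beta, and Lrrc32 (GARP) tethers latent TGF-beta on the cell surface. Ccr8 is a chemokine receptor typical of tumour Tregs, and Penk encodes proenkephalin, the precursor of opioid peptides, found in a subset of Tregs.

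The annotated part of the library held 10476 cells, with 17176544 to 25808043 UMIs per mouse and a median of 10461 to 13084 UMIs per cell and mouse. Cell types were the authors', at 24 Tregs, 64 CD4, 542 CD8 and 604 NK cells, 5725 macrophages, 3119 monocytes and 4 types of dendritic cell. The 2 libraries of the series shared 34 cell barcodes. Xist, the transcript of the inactive X chromosome, stood at 567 CPM (UMIs of the gene scaled to a common library total) in GA-aFuc replicate 2 and 551 CPM in GITR/Syn GA-aFuc replicate 2, against 1.64 to 1.98 CPM in the other 4 mice. Uty, a Y chromosome transcript, stood at 0.473 and 0.319 CPM in those 2 mice, and at 55.0 to 71.3 CPM in the other 4. Foxp3 lies on the X chromosome, and its difference with this split as a term is given beside the fit over all annotated cells. The human genes of the same names gave 16 UMIs of IL2RA, 2 of IKZF2 and 0 of the other 6 in annotated cells.

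Promoter sequence from RefSeq (build GRCm38.p6, 250 bases before to 50 after a gene's start) was matched for 4 of the 8 genes, namely Foxp3, with 2 annotated starts, Il2ra, Itgb8 and Ccr8. Those of Foxp3, which defines the cells, of Il2ra, found in all 10 cell types, and of Itgb8, rare outside Tregs among annotated cells, are shown 5′ to 3′ on the gene's own strand. Capitals mark matches on either strand to TTCNNNGAA (the STAT5 pattern, found in 8.30% of the 32851 promoter windows of the table), to TGGAAA (the NFAT pattern, in 21.4%), to TGTGGT (the RUNX pattern, in 16.8%), to TGTTTAC (the forkhead pattern, in 3.65%), to TATAAA (the TATA box, in 13.6%) or to GGGCGG (the GC box, in 35.7%).
Foxp3, first start, chrX:7579426-7579725, plus strand: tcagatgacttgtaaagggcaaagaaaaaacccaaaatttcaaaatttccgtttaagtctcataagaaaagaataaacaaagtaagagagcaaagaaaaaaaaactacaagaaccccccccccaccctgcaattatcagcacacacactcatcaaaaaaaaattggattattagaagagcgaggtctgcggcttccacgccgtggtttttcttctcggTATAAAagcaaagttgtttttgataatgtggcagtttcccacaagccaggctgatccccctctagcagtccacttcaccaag
Foxp3, second start, chrX:7580233-7580532, plus strand: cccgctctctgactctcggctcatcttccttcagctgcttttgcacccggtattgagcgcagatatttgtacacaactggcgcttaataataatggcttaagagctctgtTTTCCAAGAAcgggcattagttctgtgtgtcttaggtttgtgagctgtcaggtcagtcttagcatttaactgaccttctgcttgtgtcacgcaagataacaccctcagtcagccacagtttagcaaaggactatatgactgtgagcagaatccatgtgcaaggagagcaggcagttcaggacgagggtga
Il2ra, chr2:11642542-11642841, plus strand: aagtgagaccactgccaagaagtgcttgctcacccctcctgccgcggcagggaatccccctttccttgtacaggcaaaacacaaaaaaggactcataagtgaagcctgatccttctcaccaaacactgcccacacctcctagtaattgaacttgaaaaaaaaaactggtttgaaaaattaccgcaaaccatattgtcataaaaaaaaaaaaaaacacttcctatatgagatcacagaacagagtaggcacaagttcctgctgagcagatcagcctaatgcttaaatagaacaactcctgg
Itgb8, chr12:119238227-119238526, minus strand: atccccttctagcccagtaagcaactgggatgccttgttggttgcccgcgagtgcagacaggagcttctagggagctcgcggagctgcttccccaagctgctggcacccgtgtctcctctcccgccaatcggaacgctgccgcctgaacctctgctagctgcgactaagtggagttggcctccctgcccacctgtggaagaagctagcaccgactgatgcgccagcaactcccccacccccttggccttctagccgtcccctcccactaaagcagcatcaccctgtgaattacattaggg
The first Foxp3 window held 1 TATA box. The second held 1 STAT5 pattern and 1 NFAT pattern, which overlap and share 1 run of capitals. The Il2ra and Itgb8 windows held none of the 6 patterns. CpG dinucleotides numbered 6 and 8 in the Foxp3 windows, 3 in that of Il2ra and 13 in that of Itgb8, beside a median of 7 over all windows. These matches describe letters in 1 window and say nothing of binding, which was not measured.

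Across cell types, Foxp3 was highest in cells annotated as Tregs and rare elsewhere, while Ikzf2 and Il2ra were found in every type. The authors may have set the types from the same transcripts, so these levels are a description with no test. Foxp3 had 52 UMIs in the 24 Tregs, or 237 CPM (95% Poisson interval 177 to 311), and 13 of 24 Tregs (54.2%) carried a UMI. CD4 cells followed with 17 UMIs in 4 of 64 cells, at 34.6 CPM (20.2 to 55.4). Of the others, 7 UMIs lay in 2 of 542 CD8 cells (1.28 CPM), 4 in 1 of 55 mregDC (7.02 CPM), and 12, each alone in its cell, in 12 of 5725 macrophages (0.141 CPM). NK cells had 0 of 604 with a UMI, which allows up to 0.497%. The intervals of Tregs and CD4 cells did not overlap. Macrophages, which should lack Foxp3, gave 0.210% of cells with a UMI at a median of 14327 UMIs per cell, beside 54.2% of Tregs at a median of 6675. Intervals and limits cover counting error only.

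Ikzf2 was highest in Tregs at 1942 CPM (1762 to 2135), with 19 of 24 cells (79.2%) carrying a UMI. The next types were CD8 cells at 452 CPM, CD4 cells at 346 CPM and NK cells at 187 CPM, with 59.2%, 46.9% and 38.1% of cells carrying a UMI. Since CD8 and NK cells were many, they held 45.5% and 21.9% of all Ikzf2 UMIs and Tregs 7.86%. Macrophages and monocytes were lowest, at 8.37 and 8.20 CPM. Il2ra, at 666 CPM in Tregs (562 to 783), was found in 22 of 24 of them. It was next highest in CD4 cells at 315 CPM, in mregDC, dendritic cells of a mature regulatory state, at 155 CPM (25 of 55 cells), and in CD8 cells at 105 CPM. Macrophages, at 25.0 CPM, held 47.6% of all Il2ra UMIs, so the level of Il2ra over all leukocytes is mostly not that of Tregs. Ikzf4 stood at 109 CPM in Tregs (70.1 to 163) and at 73.8 CPM in mregDC, whose intervals overlapped, with CD4 cells at 42.7 and CD8 cells at 38.1 CPM.

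Among annotated cells, the genes of TGF-beta release were sparse outside Tregs. Itgb8 had 40 of its 74 UMIs in 14 of the 24 Tregs (182 CPM) and 0 in the 64 CD4 cells, which allows up to 4.69% of cells, and its next level was 1.46 CPM in CD8 cells. Lrrc32 had 16 of 45 UMIs in 6 Tregs (72.9 CPM), against 6.10 CPM in CD4 cells and 5.27 CPM in mregDC. The chemokine receptor and the peptide precursor were rare in Tregs as well. Ccr8 stood at 22.8 CPM in Tregs (5 UMIs in 4 cells), 20.3 CPM in CD4 cells (10 UMIs in 8 cells) and 7.14 CPM in CD8 cells, where 39 of its 59 UMIs lay. Tregs and CD4 cells did not differ in Ccr8 beyond counting error, with intervals of 7.40 to 53.2 CPM in Tregs and 9.76 to 37.4 CPM in CD4 cells. Penk stood at 292 CPM in Tregs, but 52 of its 64 UMIs there came from 1 cell. In CD8 cells 76 of the 98 Penk UMIs likewise came from 1 cell.

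**Figure D1:**
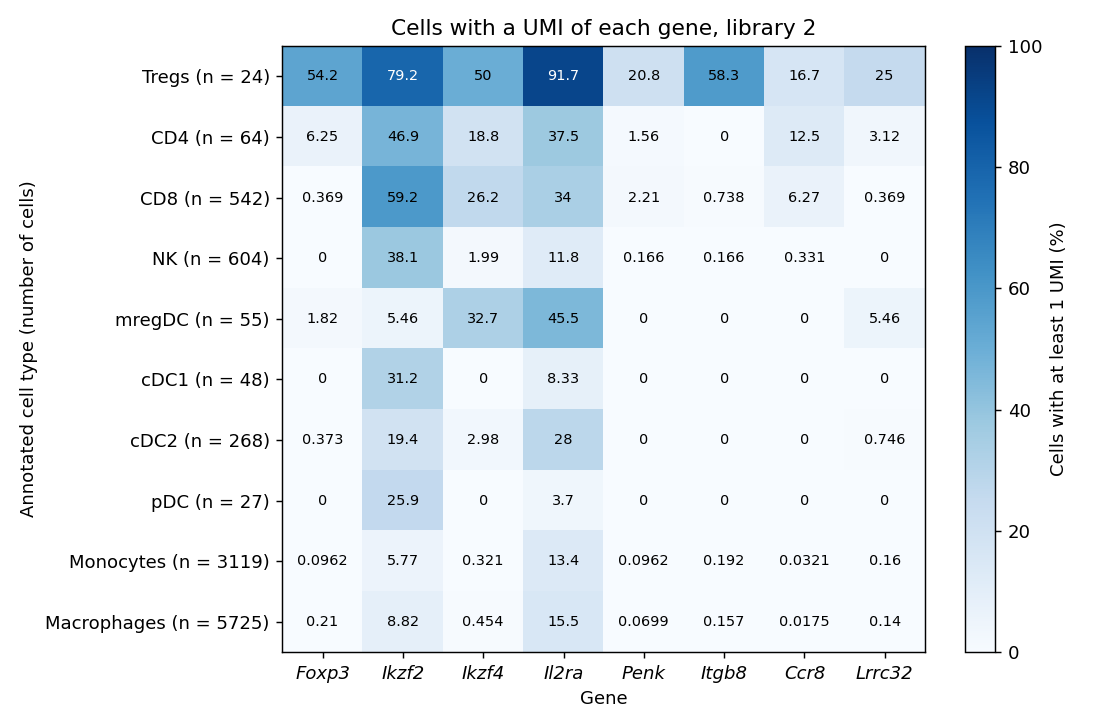
Share of annotated cells of each type (rows, with the number of cells) that carried at least 1 UMI of each gene (columns), in percent, over the 6 mice of library 2. Tregs had the highest share for all 8 genes, and Foxp3, Itgb8, Penk and Lrrc32 stayed at or under 6.25% in every other type.

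Within the Tregs, UMIs of most of the genes came from the N297A and Untreated mice. The Tregs numbered 2 and 1 under GA-aFuc, 1 and 1 under GITR/Syn GA-aFuc, 8 under N297A and 11 in the Untreated mouse, and all came from 1 cluster of the authors. With so few cells, and cells of 1 mouse being no replicates, these values carry no test. Foxp3 had 0 UMIs in the 5 Tregs of Fc-enhanced mice, against 33 UMIs in 6 of 8 N297A Tregs and 19 UMIs in 7 of 11 Untreated Tregs. Zero of 5 allows a share of up to 60%, and over the 31977 UMIs of these 5 cells a level of up to 93.8 CPM. That limit lies under the 278 CPM (207 to 364) of the other 19 Tregs. Median depth was 7320 UMIs in the 5 cells and 6642 UMIs in the 19.

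Of the other genes, Ikzf2 and Il2ra had intervals that did not overlap between these cells, and Ikzf4 did not differ beyond counting error. Ikzf2 had 2 UMIs in 1 of 5 Fc-enhanced Tregs, or 62.5 CPM (7.57 to 226), against 424 UMIs in 18 of 19 N297A and Untreated Tregs, or 2263 CPM (2052 to 2489). Il2ra was found in 3 of 5 Fc-enhanced Tregs at 313 CPM (150 to 575), against 19 of 19 others at 726 CPM (609 to 859). Ikzf4 was at 93.8 CPM (19.4 to 274) in Fc-enhanced Tregs and 112 CPM (69.4 to 171) in the others. Itgb8, Penk, Ccr8 and Lrrc32 each had 0 UMIs in the 5 Fc-enhanced Tregs. In the 19 others, Itgb8 was found in 14 cells at 214 CPM, Penk in 5 at 342 CPM, Ccr8 in 4 at 26.7 CPM and Lrrc32 in 6 at 85.4 CPM. For Ccr8 and Lrrc32 the upper limit of 93.8 CPM is above those levels, so a difference was not detectable at this depth. For Penk, 52 of the 64 UMIs of the 19 others came from 1 cell, so no difference is read from its level. In the 13 others of at most 10000 UMIs, Lrrc32 was at 169 CPM (87.5 to 296), and that interval holds the limit.

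Counted per cell, Fc-enhanced Tregs carried 0 to 2 of the 8 genes (median 1), N297A Tregs 4 to 7 (median 5) and Untreated Tregs 2 to 6 (median 4). At least 4 were carried by 0 of the 5 Fc-enhanced cells and 15 of the 19 others. All 13 Tregs with a Foxp3 UMI also had Ikzf2 and Il2ra, 11 had Itgb8, and all 4 cells with Ccr8 and all 6 with Lrrc32 were among these 13. Ikzf4 was in 7 of these 13. The 6 N297A and Untreated Tregs without a Foxp3 UMI had Il2ra in 6, Ikzf2 in 5, Ikzf4 in 4 and Itgb8 in 3.

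**Figure D2:**
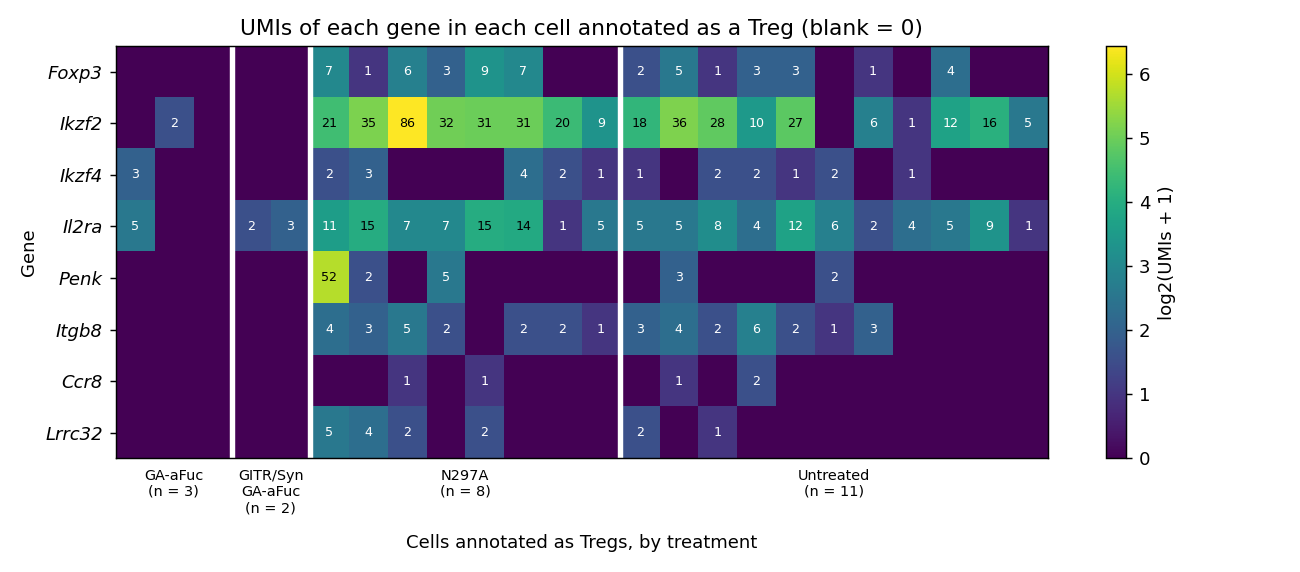
UMIs of each gene (rows) in each of the 24 cells annotated as Tregs (columns, grouped by treatment), with colour on a log2(UMIs + 1) scale and blank cells at 0. The 5 Fc-enhanced cells hold at most 2 of the genes, and Foxp3 UMIs appear in 13 of the 19 N297A and Untreated cells.

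The label of the 5 Fc-enhanced cells was checked against other markers. They were T cells: Cd3g and Cd3e, chains of the T cell receptor complex, and Cd4 were found in 5 of 5, and all 10 T cell markers of the list had UMIs. Like the other 19 Tregs, they carried costimulatory receptors of activated and regulatory T cells. Icos was at 1032 CPM in Fc-enhanced Tregs and 1238 CPM in the others, each in all cells. Tnfrsf9 (4-1BB) was at 1251 CPM in Fc-enhanced Tregs and 1110 CPM in the others, and Tnfrsf18 (GITR) at 625 CPM in Fc-enhanced Tregs and 817 CPM in the others, also in all cells. Tnfrsf4 (OX40) was also in all cells, but at 469.1 CPM in Fc-enhanced Tregs and 880.5 CPM in the others. Ctla4, an inhibitory receptor, was in 4 of 5 Fc-enhanced Tregs (594 CPM) and 16 of 19 others (1153 CPM). CD4 cells carried these receptors too. Of 64 CD4 cells, Icos was in 59, Tnfrsf9 in 43, Tnfrsf18 in 45, Tnfrsf4 in 32 and Ctla4 in 52. Against the label, Ifng, the interferon gamma gene of conventional effector cells, was found in 3 of 5 Fc-enhanced Tregs and 0 of 19 others. Cd40lg, the helper ligand CD40L, was in 4 of 5 Fc-enhanced Tregs and 0 of 19 others, and was named after its values were seen. Areg, a growth factor of tissue Tregs, was in 0 of 5 Fc-enhanced Tregs and 10 of 19 others. With Foxp3 at 0 as well, these 5 cells are Tregs by annotation and not by the defining transcript, at this depth.

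All 8 genes were found in both N297A and Untreated Tregs, which come from 1 mouse each, and their levels over all such cells are set beside those without the deepest cells. Foxp3 was at 478 CPM (329 to 672) in N297A Tregs and 161 CPM (96.6 to 251) in Untreated Tregs. Ikzf2 was at 3842 CPM (3393 to 4333) in N297A Tregs and 1343 CPM (1142 to 1568) in Untreated Tregs, and Il2ra at 1087 CPM in N297A Tregs and 515 CPM in Untreated Tregs. Itgb8 overlapped, at 276 CPM (166 to 430) in N297A Tregs and 177 CPM (110 to 271) in Untreated Tregs. Of the 24 Tregs, 6 had over 10000 UMIs, 2 from the N297A mouse and 4 from the Untreated mouse, and these carried a median of 337 UMIs of 7 macrophage markers, against 3 in the other 18. In the Tregs of at most 10000 UMIs, a restriction chosen after seeing the data, Foxp3 was found in 0 of 5 Fc-enhanced cells, 4 of 6 N297A cells and 5 of 7 Untreated cells. There Foxp3 was at 535 CPM (331 to 818) in N297A Tregs and 412 CPM (219 to 704) in Untreated Tregs, and Il2ra at 1350 CPM (1011 to 1766) in N297A Tregs and 1203 CPM (851 to 1651) in Untreated Tregs. The intervals of both genes overlapped, so neither differed beyond counting error without the deepest cells. Those of Ikzf2 did not overlap, at 5146 CPM (4460 to 5906) in N297A Tregs and 3546 CPM (2920 to 4267) in Untreated Tregs. In those N297A Tregs, however, 86 of the 202 Ikzf2 UMIs came from 1 cell.

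Outside the Treg label, the few Foxp3 UMIs of Fc-enhanced mice lay in other cells. Their annotated cells held 23 Foxp3 UMIs, with 0 in Tregs, 14 in CD4 cells (60.9%) and 9 in macrophages. The N297A and Untreated mice held 73, with 52 in Tregs (71.2%), 7 in CD8 cells and 3 in CD4 cells. Of the 14 in CD4 cells, 13 came from 2 of the 11 CD4 cells of GA-aFuc replicate 3, and 1 from GITR/Syn GA-aFuc replicate 2. The CD4 class itself is mixed, since 17 of its 64 cells had a UMI of Cd8a. Without those, 4 of 47 CD4 cells (8.51%) had Foxp3, against 6.25% of all 64.

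Barcodes without an annotation were counted too. Of 5815 such barcodes with at least 500 UMIs, 66 had a Foxp3 UMI, and 56 of these also had a UMI of Cd3 genes or Trac. The 66 held 173 Foxp3 UMIs, against 96 in annotated cells. A mouse could be given by hashtag to 43 of the 66. With them, barcodes with a Foxp3 UMI numbered 8 and 7 under GA-aFuc, 4 and 6 under GITR/Syn GA-aFuc, 27 under N297A and 27 in the Untreated mouse. All 4 Fc-enhanced mice were lower than both others, with no overlap, though the share of all genes without such overlap was not counted. Itgb8 did not separate the groups in this count of barcodes. Barcodes with an Itgb8 UMI numbered 52 and 30 under GA-aFuc, 23 and 18 under GITR/Syn GA-aFuc, 45 under N297A and 34 in the Untreated mouse, with GA-aFuc replicate 2 the highest. Most Itgb8 UMIs lay in barcodes without an annotation, where 224 barcodes held 367 UMIs and 54 of the 224 also had a UMI of Cd3 genes or Trac, against 74 UMIs in annotated cells. Lrrc32 overlapped too, with 10 to 15 barcodes in Fc-enhanced mice, 24 under N297A and 12 in the Untreated mouse. Its UMIs likewise lay mostly in barcodes without an annotation, where 95 barcodes held 164 UMIs, against 45 UMIs in annotated cells.

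**Figure D3:**
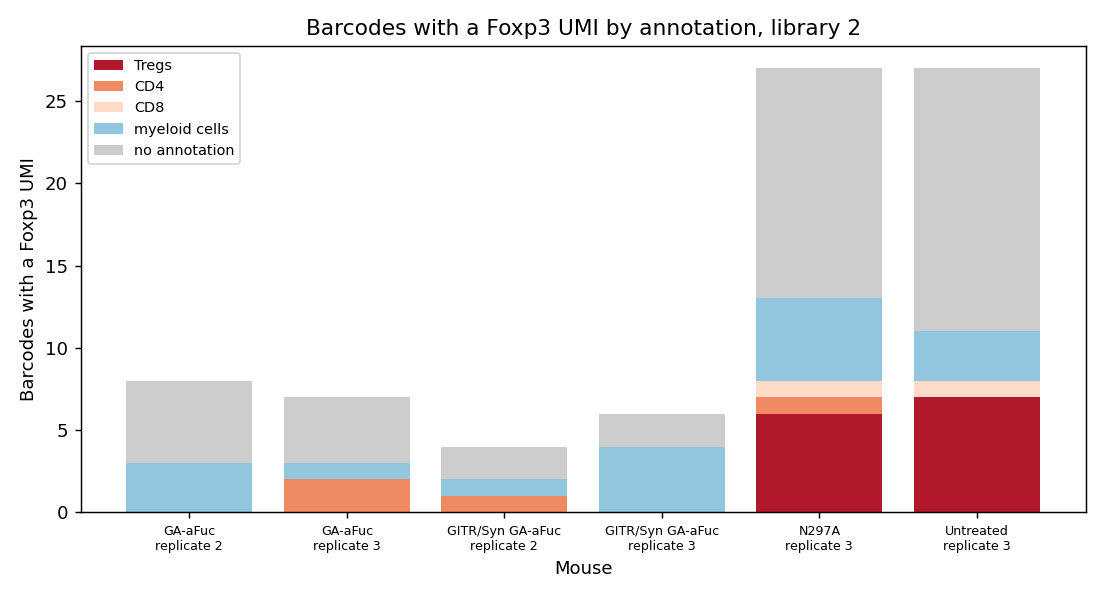
Barcodes with at least 1 Foxp3 UMI in each mouse (bars), stacked by the authors' annotation, with barcodes without an annotation in grey. The Fc-enhanced mice reach 4 to 8 barcodes, none of them an annotated Treg, and the N297A and Untreated mice 27 each.

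As a share of annotated cells, those with a Foxp3 UMI made up 0.174% and 0.195% under GA-aFuc, 0.116% and 0.208% under GITR/Syn GA-aFuc, 0.726% under N297A and 0.622% in the Untreated mouse. The Fc-enhanced mice were all lower than both others. The means were 0.173% ± 0.0407 (SD, n = 4) in Fc-enhanced mice and 0.674% in the other 2, and the exact two-sided permutation test gave p = 0.0667, the smallest that 15 arrangements of 6 mice allow. Penk also separated the groups (p = 0.0667, exact permutation test), at 0.0578% to 0.195% in Fc-enhanced mice, 0.391% under N297A and 0.509% in the Untreated mouse. How large a part of all genes separates these groups was not counted, so no result about the set is read from this. The other 6 genes overlapped between the groups, with exact permutation p-values of 0.2 to 0.867. With 8 genes tested, no share passed at 0.05, which this design cannot reach. The Fc-enhanced grouping was known from earlier results of these data to separate Treg shares, so these p-values only describe it.

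Summed over all annotated cells of each mouse, all 8 genes were lower in Fc-enhanced mice by the fitted difference, and none passed the test across all genes. Such sums cannot tell fewer cells from less RNA per cell. Foxp3 was at 0.129 and 0.815 CPM under GA-aFuc, 0.0911 and 0.155 CPM under GITR/Syn GA-aFuc, 2.24 CPM under N297A and 1.11 CPM in the Untreated mouse. The groups did not overlap, and GA-aFuc replicate 3, with the 2 CD4 cells above, was the highest Fc-enhanced mouse. For this and the other genes below, the share of all genes without such overlap was not counted. The log2 difference was −2.75 ± 0.61 (SE), with an unadjusted p of 0.00196 and an adjusted p of 0.956 by edgeR's quasi-likelihood test. Of the 15912 genes in that comparison, 0% were called at an adjusted p under 0.05 and 4.14% had an unadjusted p under 0.05, beside 0 and 4 of the 8 genes.

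Ikzf2 was at 40.5 and 35.3 CPM under GA-aFuc, 38.9 and 30.8 CPM under GITR/Syn GA-aFuc, 45.4 CPM under N297A and 55.5 CPM in the Untreated mouse. These groups did not overlap either, but the step was small, at −0.51 ± 0.14 (log2, SE; unadjusted p = 0.00534, edgeR). Il2ra, at 18.5 and 31.4 CPM under GA-aFuc, 25.0 and 43.1 CPM under GITR/Syn GA-aFuc, 50.8 CPM under N297A and 33.1 CPM in the Untreated mouse, overlapped between the groups (−0.53 ± 0.28). Ikzf4 overlapped as well, at 1.91 to 3.65 CPM in Fc-enhanced mice, 2.47 CPM under N297A and 3.45 CPM in the Untreated mouse (−0.25 ± 0.31).

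Itgb8 was at 0.129 and 1.16 CPM under GA-aFuc, 0.0911 CPM and 0 under GITR/Syn GA-aFuc, 1.12 CPM under N297A and 1.11 CPM in the Untreated mouse. GA-aFuc replicate 3 was as high as the N297A mouse, and 16 of its 20 UMIs came from 6 macrophages, 9 of them from 1 cell. The log2 difference was −2.75 ± 0.86 (unadjusted p = 0.0131, edgeR), and −0.96 over all barcodes with a mouse. Lrrc32 did not overlap between the groups, at 0.129 to 0.349 CPM in Fc-enhanced mice, 0.700 CPM under N297A and 0.531 CPM in the Untreated mouse (−1.57 ± 0.57, unadjusted p = 0.0243, edgeR; −0.93 over all barcodes with a mouse). Penk overlapped between the groups. GA-aFuc replicate 3, at 4.54 CPM, was the highest of all mice, with 76 UMIs in 1 CD8 cell, while the other Fc-enhanced mice stood at 0.0455 to 0.310 CPM, the N297A mouse at 3.08 CPM and the Untreated mouse at 0.886 CPM. Its difference was −1.36 ± 1.01. Ccr8 was at 0.137 to 0.473 CPM in Fc-enhanced mice, 0.420 CPM under N297A and 0.930 CPM in the Untreated mouse (−0.98 ± 0.55).

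The adjusted p was 0.956 for each of the 8 genes, and DESeq2 likewise called 0 of them. The members' median log2 difference was −1.17, beside 0.02 over all genes. The calls depended on single mice and on the filter: without GA-aFuc replicate 3, edgeR called 4 of the 8 lower in Fc-enhanced mice (Foxp3, Il2ra, Penk and Itgb8), without GA-aFuc replicate 2 it called 2 (Foxp3 and Itgb8), and with no filter on low counts 3 (Foxp3, Penk and Itgb8). In those fits 0.772%, 2.54% and 0.887% of all genes were called, in that order, against 0% with all mice and the filter. The fits without a GA-aFuc mouse had 1 residual degree of freedom, and their spread came from the GITR/Syn GA-aFuc pair alone. With the replicate number, which is also the split by Xist, as a term added after seeing the data, 1 residual degree of freedom was left as well. Foxp3 was then at −2.04 and called (adjusted p = 0.0165, edgeR), the other 7 were not, and 1.76% of all genes were called. Without the cells annotated as Tregs, the difference of Foxp3 was −0.90, that of Ikzf2 −0.20 and that of Itgb8 −0.33, against −0.43 for Il2ra and −0.70 for Ccr8, and 0 genes of the set were called. Leaving out each mouse, Penk ran from −3.22 to −0.45, Ccr8 from −1.53 to −0.43 and Il2ra from −0.86 to −0.20.

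**Figure D4:**
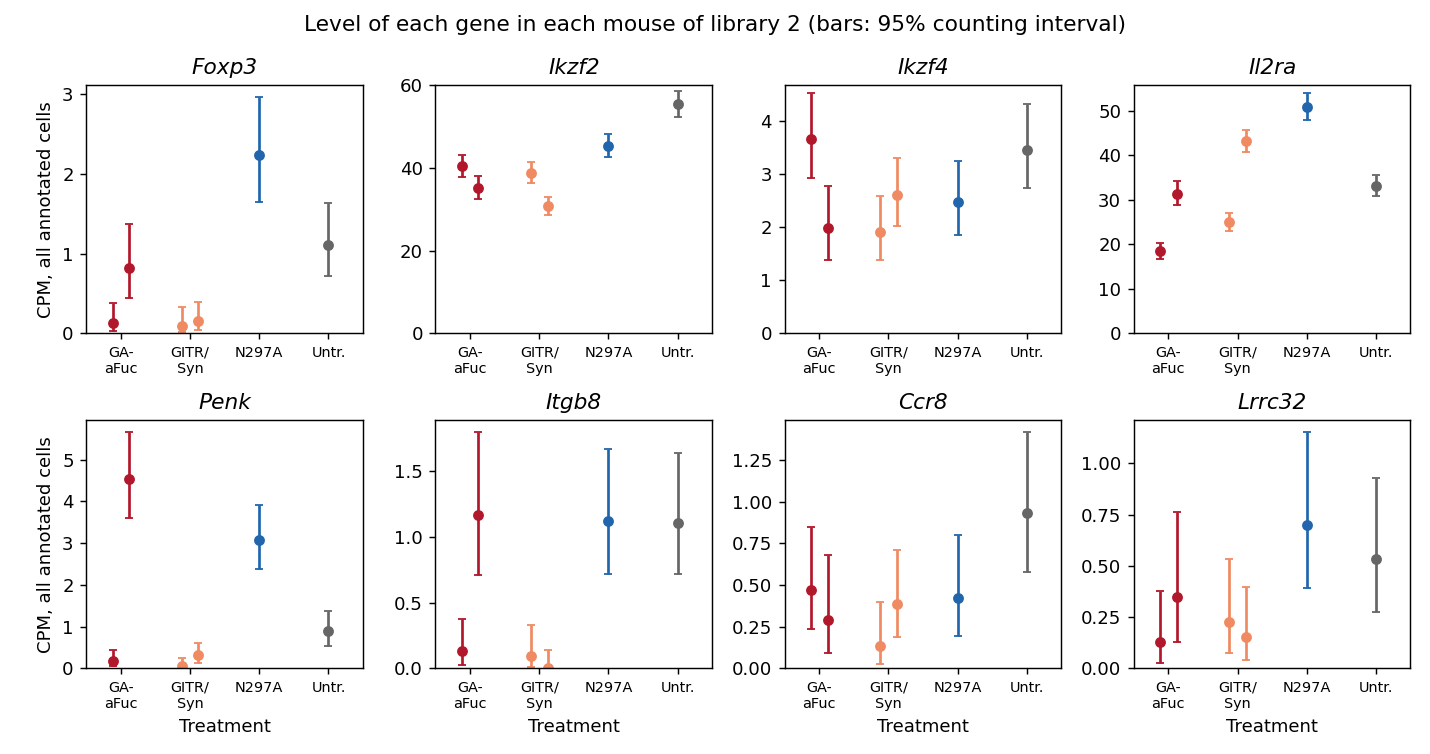
CPM of each gene (panels) summed over all annotated cells of each of the 6 mice, by treatment, with 95% Poisson intervals that cover counting error only. Foxp3, Ikzf2 and Lrrc32 do not overlap between the 4 Fc-enhanced mice and the other 2, and GA-aFuc replicate 3 reaches the level of the other 2 for Itgb8 and lies above both for Penk. The share of all genes without such overlap was not counted.

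The single treatments, which share animals with each other in these contrasts, were also set side by side, and in each of the 5 contrasts over all annotated cells 0% of genes were called. Foxp3 differed by −2.39 ± 0.77 (log2, SE) between GA-aFuc and N297A, by −1.34 ± 0.83 between GA-aFuc and Untreated and by −3.11 ± 0.93 between GITR/Syn GA-aFuc and Untreated. Between the antibodies with an enhanced Fc part, GITR/Syn GA-aFuc minus GA-aFuc was −1.77 ± 0.93, and N297A minus Untreated was 1.05 ± 0.85. The adjusted p was at least 0.997 in all of these by edgeR, and with 1 N297A and 1 Untreated mouse the spread came from the Fc-enhanced pairs alone.

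Within cell classes other than Tregs, 0 of 14 tests of the genes passed in the Fc-enhanced comparison, 3 of them with an unadjusted p under 0.05 (edgeR; DESeq2 called 0). Among all genes, 0% were called in macrophages, 0.344% in monocytes, 0.0117% in CD8 cells, 0.268% in NK cells and 0.0234% in dendritic cells. An unadjusted p under 0.05 was found for 3.33%, 8.54%, 3.99%, 9.44% and 6.15% of all genes in these classes, in that order. Foxp3, Ccr8 and Lrrc32 passed the filter on low counts in none of these classes. In NK cells Il2ra was at 25.4 and 9.08 CPM (on TMM library sizes, as in all values of this paragraph) under GA-aFuc, 33.5 and 48.2 CPM under GITR/Syn GA-aFuc, 11.04 CPM under N297A and 9.55 CPM in the Untreated mouse. Of the 4 Fc-enhanced mice, 3 were above both others, and GA-aFuc replicate 3 was below them. The log2 difference was 1.45 ± 0.37, with an adjusted p of 0.177 by edgeR. In monocytes it was at 20.7 and 22.3 CPM under GA-aFuc, 29.4 and 43.2 CPM under GITR/Syn GA-aFuc, 42.8 CPM under N297A and 38.7 CPM in the Untreated mouse. The GA-aFuc mice were lowest (GA-aFuc minus N297A −0.99 ± 0.24, adjusted p = 0.126 by edgeR, where 0.579% of all genes were called). In macrophages the range was 9.16 to 34.7 CPM in Fc-enhanced mice, against 47.3 CPM under N297A and 21.4 CPM in the Untreated mouse, and in CD8 cells 62.9 to 164 CPM in Fc-enhanced mice, against 137 CPM under N297A and 80.9 CPM in the Untreated mouse. Without GA-aFuc replicate 3, edgeR called Il2ra in 3 classes, at −1.07 in macrophages, 1.64 in NK cells and −1.07 in dendritic cells (log2, Fc-enhanced minus other), where 0.636%, 0.937% and 0.835% of all genes were called in that order. In each class the fit without that mouse took its spread from the GITR/Syn GA-aFuc pair alone. In macrophages Il2ra ran from −1.17 to −0.01 leaving out each mouse. In the contrasts between single treatments, with those over all annotated cells and in CD4 cells included, 0 of 113 tests of the genes passed. Of these tests 24 had an unadjusted p under 0.05, and the lowest adjusted p was 0.122 (edgeR). Over all genes, 1.29% to 9.04% had an unadjusted p under 0.05 in these contrasts. The shares of all genes called in macrophages, monocytes, NK, CD8 and dendritic cells, where above 0 and not given elsewhere, were 0.00697% in macrophages and 0.109% in monocytes for GITR/Syn GA-aFuc minus GA-aFuc, and 0.176% in monocytes for GA-aFuc minus Untreated. In NK cells they were 0.0536% for GA-aFuc minus Untreated, 0.0429% for GA-aFuc minus N297A, 0.129% for GITR/Syn GA-aFuc minus Untreated and 0.0107% for N297A minus Untreated. In CD8 cells they were 0.0117% for GA-aFuc minus N297A, and in dendritic cells 0.0117% for GA-aFuc minus Untreated, 0.0234% for GA-aFuc minus N297A and 0.0234% for N297A minus Untreated.

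In the dendritic cells, Il2ra and Ikzf2 separated the antibodies with an enhanced Fc part. Il2ra was at 64.9 and 84.0 CPM under GITR/Syn GA-aFuc and 18.8 and 38.0 CPM under GA-aFuc, with 95.2 CPM under N297A and 64.9 CPM in the Untreated mouse. Ikzf2 was at 59.2 and 66.3 CPM under GITR/Syn GA-aFuc and 22.3 and 26.9 CPM under GA-aFuc, with 29.6 CPM under N297A and 45.2 CPM in the Untreated mouse. The GA-aFuc mice were lowest in both, and did not overlap with the GITR/Syn GA-aFuc mice. The share of all genes without such overlap in this class was not counted. GITR/Syn GA-aFuc minus GA-aFuc was 1.37 ± 0.31 for Il2ra (adjusted p = 0.168, edgeR) and 1.34 ± 0.28 for Ikzf2 (adjusted p = 0.122, edgeR), where 0.14% of all genes were called. The class sums cDC1, cDC2, mregDC and pDC. In cDC2 alone, Il2ra stood at 81.0 and 86.3 CPM under GITR/Syn GA-aFuc and 16.8 and 39.1 CPM under GA-aFuc. The cDC1, with 12 and 11 cells under GITR/Syn GA-aFuc and 5 and 4 under GA-aFuc, held 20 and 27 of the Ikzf2 UMIs under GITR/Syn GA-aFuc and 1 and 1 under GA-aFuc. The part of the make-up of the class in the difference was not tested.

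**Figure D5:**
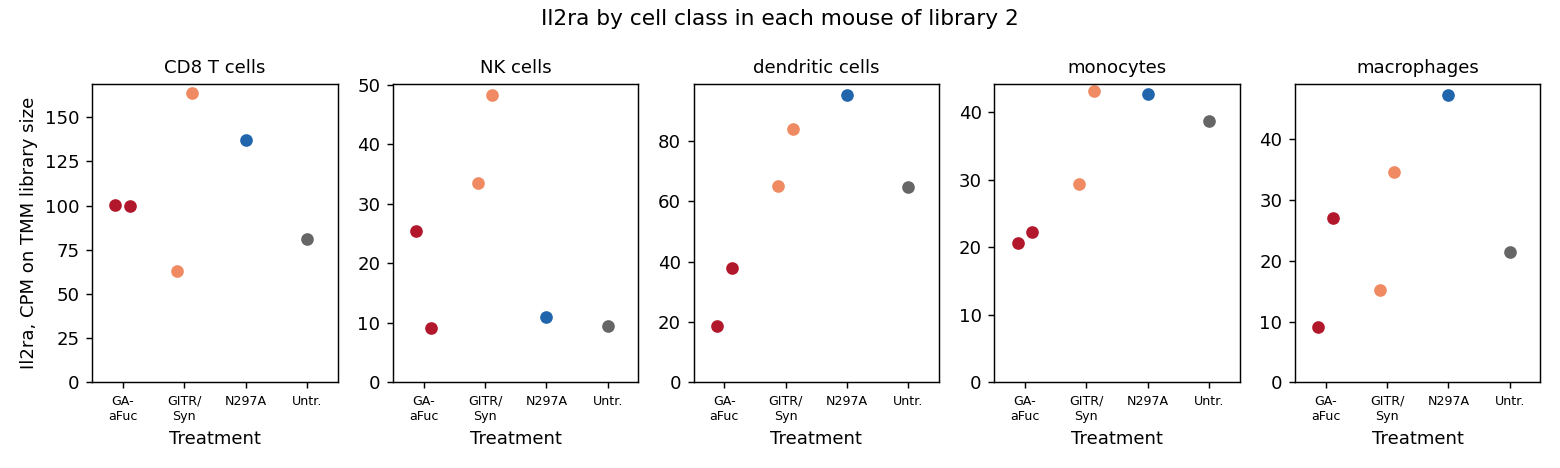
Il2ra in CPM on TMM library sizes in each mouse (points) by treatment, for 5 cell classes (panels with their own axis, each starting at 0). The GA-aFuc mice are lowest in monocytes and dendritic cells, and 3 Fc-enhanced mice are highest in NK cells.

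Ikzf2 in the classes where most of its UMIs lay showed no such split. In CD8 cells it ran from 332 to 527 CPM in Fc-enhanced mice, against 587 CPM under N297A and 463 CPM in the Untreated mouse (−0.22 ± 0.19). In NK cells it ran from 156 to 253 CPM in Fc-enhanced mice, against 166 CPM under N297A and 194 CPM in the Untreated mouse (0.09 ± 0.18). The ranges overlapped in both classes, and the N297A mouse was the highest in CD8 cells. CD4 cells reached 10 per mouse only in the GA-aFuc and N297A animals, where Foxp3 differed by 0.85 ± 3.41 (GA-aFuc minus N297A, adjusted p = 0.997 by edgeR, with 0.794% of 2142 genes called).

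The pathway genes beside the 8 were described from lists, with their levels in Tregs. Of 30 other Treg genes, 29 were tested over all annotated cells and 0 passed in either direction, with 15 positive differences and a median log2 difference of 0.01. The 6 with the highest CPM in Tregs were Icos, Tnfrsf9, Ctla4, Maf, a transcription factor of interleukin-10 producing cells, Tnfrsf4 (OX40) and Tnfrsf18, at 1208, 1131, 1071, 907, 821 and 789 CPM in that order. Among these, Tnfrsf4 (−0.98 ± 0.26) and Tnfrsf18 (−0.43 ± 0.16) had unadjusted p-values of 0.00496 and 0.0254 (edgeR, adjusted p 0.956). Of 14 genes of interleukin-2 and STAT5 signalling 0 passed, with 5 positive and a median of −0.01. They were led in Tregs by Il7r at 333 CPM, Socs1 at 319 CPM, Jak1 at 315 CPM, Il2rb at 296 CPM, Il2rg at 242 CPM and Cish at 205 CPM. Il2 itself had 0 UMIs in Tregs. In monocytes Cish, an inhibitor of cytokine signalling induced by STAT5, and Tnfrsf9 rose in Fc-enhanced mice, by 0.79 ± 0.15 and 1.71 ± 0.29 (log2, SE; adjusted p = 0.0469 and 0.0296 by edgeR).

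Of 19 partners and regulators of Foxp3, 0 passed, with a median of −0.04. Runx1 led them in Tregs at 629 CPM, then Satb1 at 360, Rel at 296, Nr4a1 at 260, Foxp1 at 251 and Runx3 at 210 CPM. The 14 genes of TGF-beta activation included the partner chain of Itgb8, Itgav, at 597 CPM in Tregs (250 CPM in Fc-enhanced and 656 CPM in the other Tregs), and Tgfb1 at 201 CPM (500 CPM in Fc-enhanced and 149 CPM in the other Tregs). Tgfbr1, Furin and Smad7 stood at 287, 178 and 178 CPM, and 0 of the 14 passed, with a median of 0.09. Of the 5 Ikaros family genes 0 passed. Beside Ikzf2 and Ikzf4, Tregs held Ikzf3 at 233 CPM and Ikzf1 at 219 CPM, and Ikzf5 had 0 UMIs. Among ligands and receptors that pair with the 8, Ccl1, a ligand of CCR8, was at 45.6 CPM in Tregs, all in 1 cell. Of 17 conventional CD4 genes 13 were tested, with a median of −0.13 and 0 passing, and Tbx21, Cd4 and Cxcr6 stood at 233, 219 and 105 CPM in Tregs. All 10 T cell markers had negative differences over all annotated cells, with a median of −0.25 and 0 passing. The 6 NK markers had a median of −0.32 and the 4 neutrophil markers one of 1.93, with 0 passing. The part of a lower overall T cell level in the values of the 8 genes was not tested.

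Other list genes passed in single classes by edgeR's test. In monocytes Mrc1, the mannose receptor of macrophages, rose in Fc-enhanced mice by 2.31 ± 0.35 (log2, SE; adjusted p = 0.0171, edgeR), and it was lower for GITR/Syn GA-aFuc minus GA-aFuc, at −2.76 ± 0.36. In NK cells Klra8, an NK receptor gene, fell by 0.75 ± 0.13 in Fc-enhanced mice (adjusted p = 0.0197, edgeR). In CD4 cells Ccl1 differed by −2.49 ± 0.62 and the macrophage marker Apoe by 3.23 ± 0.67 (GA-aFuc minus N297A), and the part of macrophage RNA in that class was not tested. In dendritic cells Capg and Cd209a differed by −1.51 ± 0.21 and −1.91 ± 0.25 for GITR/Syn GA-aFuc minus GA-aFuc, and Capg by 2.70 ± 0.30 for GA-aFuc minus Untreated.

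Genes whose level over the 10 cell types was most like that of Foxp3 were Tshz2 (Pearson r 0.987), Lrrc32 (0.979), Mea1 (0.920), Pan3, Lgals7, Crlf3 and Selenok (0.912 each) and Rsrc1 (0.909), among 4100 genes with at least 10 UMIs in Tregs. For Il2ra they were Mier1, Axin1, Tshz2, Ikzf4 and Areg (0.942 to 0.923), for Ccr8 Gm16158, Trib2, Bcl11b, Gm15283 and Cd40lg (0.996 to 0.968), and for Itgb8 they included Csnk2a2, Map3k7, Lias and Ltf (from 0.917 upwards). The types share their libraries and the 24 Tregs are shallow as a sum, so these correlations only describe which genes were highest in the same types.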

How the data were processed

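Single-cell 3′ libraries were made from CD45-sorted tumour cells of hashtagged mice, per the labels' protocols. The matrix deposited by the authors holds raw UMI counts of droplets. Its header names Cell Ranger 9.0.0, and the submitters' processing notes name GRCh38 and GRCm39. Treatment and cell type came from the authors' deposited annotation. Mice were the runs of sorted barcodes of 1 treatment in it, numbered in order, and the largest hashtag count fitted this for 10476 of 10476 cells. The sources used here do not give how cells were annotated or doublets treated; none were called anew.

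CPM divides by all UMIs of the cells summed; intervals are exact 95% Poisson or Clopper-Pearson intervals. A count of 0 was given a limit of 3 counts. Counts were summed per mouse, over all annotated cells or per class (mice with at least 10 cells), and tested with edgeR 4.0.16 (filterByExpr, TMM, quasi-likelihood, 4 treatments, 2 residual degrees of freedom with all 6 mice, Benjamini-Hochberg over all genes tested, adjusted p under 0.05) in R 4.3.3. DESeq2 1.42.0, other size factors, filters, cells, a term for the replicate number and each mouse left out were alternatives. The labels give separate mice. The spread in the main fits came from the Fc-enhanced pairs alone, and the mice of each pair differ in Xist and Uty. Spread between mice alike in these transcripts was not measured. On simulated counts for the Fc-enhanced comparison over all annotated cells (15912 genes), recovery was 53 of 100 at a 2-fold change and 96 of 100 at an 8-fold change, with 37 false calls. These false calls were more than the threshold of 0.05 allows on average. Changed genes were drawn from all genes tested, so recovery at counts as low as those of Foxp3, Itgb8, Ccr8 and Lrrc32 was not measured. For equal depth, cells were thinned to 3000 UMIs, and 147 shallower cells were left out.

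All 8 genes are named in every class. Of other lists, the 6 genes highest in Tregs are named, and list genes that passed; some items under these rules are not reported here. The genes, the lists and the Fc-enhanced comparison were chosen with earlier results of these data known. That comparison was known from them to separate Treg shares, so its p-values for the 8 genes are no independent support. Promoter windows are from RefSeq. Python 3.11.15 and scipy 1.17.1 were used.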

Additional observations from a re-analysis of the deposited data

Results flagged for a closer look

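In all, 4 values stood apart among the 4 Fc-enhanced mice, each because 1 mouse's gap to the next, divided by the range, passed Dixon's 95% critical value for 4 samples. This was asked of 16 values (CPM and share of cells for each gene), and chance gives about 1 flag in 20. Foxp3 was at 0.815 CPM in GA-aFuc replicate 3, against 0.155 CPM in the next mouse. Penk was at 4.54 CPM in GA-aFuc replicate 3, against 0.310 CPM in the next, with 76 UMIs in 1 CD8 cell. Itgb8 was at 1.16 CPM in GA-aFuc replicate 3, against 0.129 CPM in the next, with 9 UMIs in 1 macrophage. Il2ra was carried by 22.8% of annotated cells in GITR/Syn GA-aFuc replicate 3, against 13.4% in the next.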

How the results depend on the processing

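Of the 8 genes over all annotated cells, 0 were called in the Fc-enhanced comparison, and 0 with DESeq2, other size factors, a stricter filter, mouse features only, all barcodes with a mouse, without Tregs or without the deepest cells. With no filter 3 were called (0.887% of all genes), and leaving out each mouse gave 0 to 4 (0% to 2.54% of all genes). Within classes 0 were called, 1 with no filter (Il2ra in NK cells, where 0.597% of all genes were called), and 0 to 3 leaving out each mouse, with 3 (Il2ra in macrophages, NK and dendritic cells) without GA-aFuc replicate 3. Penk reversed to 0.45 (log2) without Tregs. Leaving out each mouse, Il2ra in CD8 cells ran from −0.40 to 0.42 and Ikzf2 in NK cells from −0.11 to 0.25. The difference in share of cells with Ikzf2, 0.43 percentage points, reversed to −1.01 at 3000 UMIs per cell, −0.146 with at least 2 UMIs and −0.117 over all barcodes with a mouse, and ran from −2.18 to 3.04 leaving out each mouse. That of Ikzf4 ran from −1.25 to 0.0788. The cause was not tested. The difference in Foxp3 share, −0.501 percentage points, ran from −0.553 to −0.449 leaving out each mouse and was −0.351 at 3000 UMIs. Tregs with Foxp3, 54.2%, were 43.5% at 3000 UMIs and 43.8% to 59.1% leaving out each mouse, a check added after seeing the data. The numbers only order the runs, but replicates 2 and 3 also differ in Xist. With the replicate block, added after seeing the data, 1 of the 8 was called over all annotated cells (Foxp3; 1.76% of all genes) and 0 within classes, and Ikzf2 in NK cells reversed to −0.028.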
